A study of Mus musculus with 41 samples.

Results

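The Notch pathway genes are 10 genes of 3 kinds: the receptors *Notch1*, *Notch2* and *Notch3*, the ligands *Jag1*, *Jag2* and *Dll1*, and the nuclear arm, made of the DNA-binding effector *Rbpj* and the target genes *Hes1*, *Hey1* and *Heyl*. They were chosen by name and not by their values, and they are 10 of 21938 protein-coding genes. A peak counted for a gene where it overlapped the gene body or the 50 kb to either side of it in mm10, the mouse genome build of the files. In the 16 peak lists called on pooled replicates, 443 of 281317 peaks did so. The lists came from CUT&RUN (CNR), an assay in which an antibody directs a nuclease to a chromatin protein and the released DNA fragments are sequenced.

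Notch receptors are read by ligands on neighbouring cells. Binding of a ligand lets proteases free the intracellular domain of the receptor, which enters the nucleus, joins RBPJ on DNA and turns on repressors of the HES and HEY families. In skin, Notch signals are known for driving keratinocytes out of the basal layer into differentiation and for roles in the hair follicle.

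The study switched on SOX9, a hair follicle transcription factor, in epidermal stem cells (EpdSCs), which do not normally make it. By the labels, the sorted cells came from male mice of strain CD1 and of genotype *K14rtTA; TRE-myc-Sox9*. In these mice *Krt14* drives the activator rtTA in basal keratinocytes, and doxycycline (DOX) then turns on a MYC-tagged *Sox9* transgene. The uninduced controls carried the same transgenes. EpdSCs were sorted as CD49f-high, CD34-negative, Ly6A-high and lineage-negative cells, before DOX (D0, postnatal day 21) and after 1, 2 and 6 weeks (W1, W2 and W6, at postnatal days 28, 35 and 63). W12 cells came from neonatal skin of such mice grafted onto female Nude (immunocompromised) hosts, so age and grafting cannot be told apart from the weeks of DOX. SOX9 CNR covered all 5 times, and CNR for MLL3/4, a pair of histone methyltransferases of enhancers, covered D0, W1 and W2. Cultured keratinocytes carried WT-SOX9, dTA-SOX9 (without the transactivation domain) or dHMG-SOX9 (without the DNA-binding HMG domain). By the paper, these constructs were brought by lentivirus into *Krt14-rtTA* cells. The cultures were kept without DOX (WT-SOX9 line only) or with 1 µg per ml DOX, and were profiled for MLL3/4 and for the MYC tag. For dTA-SOX9 and dHMG-SOX9, cell line and DOX thus cannot be told apart. Each list pooled 2 samples, so no test between groups was possible. Shares carry 95% Wilson intervals over peaks, which cover counting error only, and whether a difference exceeds the spread between mice or cultures could not be measured. For induced WT-SOX9, the pair of MLL3/4 samples is numbered 1 and 2 by title, but each is described as replicate 2.

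In the SOX9 lists the lowest maximum of a peak rested on 24 fragments at W2 and 59 at D0, with 13.09 to 32.53 M fragments per list as read from the steps of the values. In the MYC-tag lists it rested on 8 to 11 fragments, with 4.035 to 6.092 M per list. The depth of the unscaled MLL3/4 lists is unknown. As a check of the sorted cells, an MLL3/4 peak lay within 1 kb of a start of 5 of 6 basal keratinocyte markers at D0 (*Itgb4* had none) and of 1 of 12 markers of immune, endothelial, fibroblast and melanocyte cells, the melanocyte gene *Dct*. Without DOX in culture this held for 3 of 6 basal markers and for *Pecam1* among the other 12.

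SOX9 sites at the Notch genes are shown first, as 101 bases of the plus strand of mm10 (RefSeq GRCm38.p6), centred on the maximum of the SOX9 peak or, for the *Notch1* sequence, of the WT-SOX9 MYC-tag peak. Capitals mark 3 words searched on both strands: SOX (CCATTGT or CCTTTGT or GCATTGT or GCTTTGT), AP1 (TGACTCA or TGAGTCA) and the RBPJ word GTGGGAA. Distances are from the annotated start of the gene, positive in the direction of transcription. Of 43 SOX9 sites at the 10 genes, made by merging overlapping W1, W2, W6 and W12 peaks, 8 held a SOX word in this window, taken from the list in which the site had its highest total signal, 6 an AP1 word and 2 an RBPJ word. Of the sites of highest total signal, 1 for each gene that had any, the *Rbpj* site was the only one with a SOX word and the *Notch3* site the only one with an AP1 word. The *Hes1*, *Dll1* and *Jag1* sequences were added after their values were seen, because they held a word (not every site with a word is printed), and the *Notch1* sequence, which held none, because the tag was found there in culture.
Rbpj +3945 bp, chr5:53470047-53470147: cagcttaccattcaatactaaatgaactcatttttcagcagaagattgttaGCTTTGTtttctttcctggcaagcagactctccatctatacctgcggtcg
Hes1 -2363 bp, chr16:30061971-30062071: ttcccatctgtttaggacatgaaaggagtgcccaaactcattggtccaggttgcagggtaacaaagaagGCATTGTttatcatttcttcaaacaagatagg
Hes1 -10978 bp, chr16:30053356-30053456: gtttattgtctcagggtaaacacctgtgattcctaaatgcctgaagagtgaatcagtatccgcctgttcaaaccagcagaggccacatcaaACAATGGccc
Hes1 +835 bp, chr16:30065169-30065269: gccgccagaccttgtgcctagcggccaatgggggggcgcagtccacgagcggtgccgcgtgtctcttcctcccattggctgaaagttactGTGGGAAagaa
Dll1 -3938 bp, chr17:15380760-15380860: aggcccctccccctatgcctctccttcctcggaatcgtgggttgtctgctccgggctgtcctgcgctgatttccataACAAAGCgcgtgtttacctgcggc
Dll1 +11075 bp, chr17:15365747-15365847: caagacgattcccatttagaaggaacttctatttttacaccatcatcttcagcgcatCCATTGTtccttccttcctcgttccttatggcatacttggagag
Dll1 +27612 bp, chr17:15349210-15349310: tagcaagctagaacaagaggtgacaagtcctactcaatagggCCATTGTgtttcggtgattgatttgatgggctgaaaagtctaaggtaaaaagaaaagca
Notch3 +4813 bp, chr17:32161989-32162089: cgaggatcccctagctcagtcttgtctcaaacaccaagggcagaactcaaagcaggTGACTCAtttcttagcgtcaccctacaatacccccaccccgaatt
Jag1 +51871 bp, chr2:137064723-137064823: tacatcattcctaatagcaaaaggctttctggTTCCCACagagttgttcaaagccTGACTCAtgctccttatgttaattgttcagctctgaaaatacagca
Notch1 -15456 bp, chr2:26532069-26532169: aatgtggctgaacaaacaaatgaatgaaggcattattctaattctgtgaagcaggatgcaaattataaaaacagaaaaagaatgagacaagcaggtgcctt

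*SOX9 at the Notch genes in vivo.* Across D0, W1, W2, W6 and W12, the SOX9 lists held 2, 18, 27, 34 and 13 peaks at the 10 genes. The lists differ in length, from 9745 peaks at W12 to 20579 at W6 among the DOX times, and with the 9745 peaks of highest total signal taken from each, the counts from W1 to W12 were 12, 16, 17 and 13. At D0, 2 of the 10 genes had a peak (*Hes1* and *Dll1*), where 6.04% of all protein-coding genes had one. The number was 5 genes at W1 (52.4% of all genes), 7 at W2 (57.5%) and 8 at W6 (58.8%), with 6 left at W12 (39.8%). Per 100 kb of window the Notch genes held 1.18 peaks at W1 against 0.946 for all protein-coding genes, 2.23 against 1.22 at W6 and 0.854 against 0.499 at W12. By these means, which carry no interval, the peaks were more dense than at an average gene. The median per gene, from W1 to W12, was 0.5, 2.5, 3 and 1, against 1, 1, 1 and 0 for all genes, so at W1 it was lower. The peaks were also uneven: at W6 *Hes1* held 9, *Rbpj* 7, *Notch1* and *Dll1* 5 each and *Jag1* 4 of the 34, and *Hey1* and *Heyl* held 0 at every time. In such bulk samples, fewer cells with SOX9 at a site and less SOX9 per cell cannot be told apart. The D0 cells were uninduced, and their list held 792 peaks. A SOX word stood in 8.21% of these and an AP1 word in 45.3%, against 18.5% and 16.2% of the W1 list. Whether the D0 peaks were SOX9 or background of the assay was not tested.

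**Figure D1:**
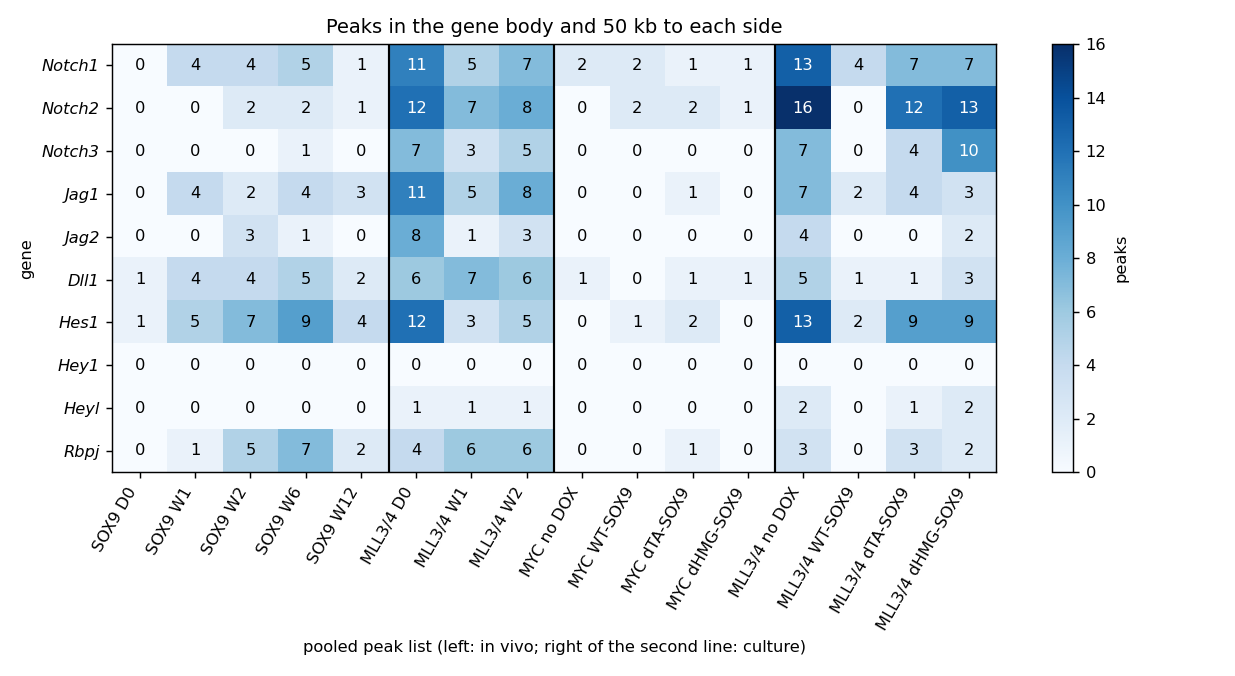
Peaks counted in the gene body and 50 kb to each side (numbers and colour, 0 to 16) for the 10 Notch genes (rows) in the 16 pooled lists (columns). SOX9 peaks of *Hes1* went from 1 at D0 to 9 at W6, MLL3/4 peaks of most genes were fewer after DOX, and *Hey1* had none in any list.

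Among the receptors, *Notch1*, the main Notch receptor of the epidermis, had 0, 4, 4, 5 and 1 SOX9 peaks at D0, W1, W2, W6 and W12. These fell on 6 sites, and its window also holds *Sec16a* and *Inpp5e*: the site of highest total signal (rank 2174 of 18657 at W2) lay 274 bp from a start of *Sec16a* and not of *Notch1*. A further site lay 15431 bp upstream of *Notch1*. Its maximum was 2074 RPKM at W1, 3904 RPKM at W6 and 5285 RPKM at W12, with no peak listed at W2, and at W12 it ranked 912 of 9745, as the sole SOX9 peak left at *Notch1*. *Notch2*, a second receptor of the same kind, had 0, 0, 2, 2 and 1 peaks. Its strongest site lay in an intron 29852 bp from the start and reached 2896 RPKM at W6 and 3539 RPKM at W12. *Notch3* had 1 peak in the 5 lists, at W6, in an intron 4813 bp from the start (1805 RPKM, 43 fragments, just above the limit of 1800 RPKM of these lists). Of these 3 receptors, *Notch1* was thus the only one with a SOX9 peak at W1.

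Among the ligands, *Jag1* and *Dll1* had SOX9 peaks at W1 and *Jag2* did not. *Jag1*, a ligand with many roles in the hair follicle, had 0, 4, 2, 4 and 3 peaks on 7 sites. Its strongest site, in its own intron 18383 bp from the start, had 3803 RPKM at W1, 4966 RPKM at W2 (rank 675) and 3022 RPKM at W6. A second site, 51871 bp from the start in the neighbour *Slx4ip* and printed above with an AP1 and an RBPJ word, was listed at all 4 times, at 4264, 2521, 4618 and 2666 RPKM. A W6 peak of 2183 RPKM lay 141 bp upstream of the *Jag1* start.

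*Dll1*, a ligand that basal keratinocytes present, had 1, 4, 4, 5 and 2 peaks on 5 sites. The site 50556 bp past its start was the strongest of any at the 10 genes, with rank 106 of 18657 at W2 (the top 0.568%). It was already listed at D0 (1906 RPKM), and read 5186, 5119, 4450 and 1884 RPKM from W1 to W12. It lay in intergenic DNA, and the nearest protein-coding start was one of *Dll1*, 42074 bp away. Of the 4 other *Dll1* sites, 3 held a SOX word, and the fourth lay at the start of the neighbour *Fam120b*. *Jag2*, the remaining ligand, had 0, 0, 3, 1 and 0 peaks. The strongest of its 3 sites was 846 bp from one of its starts, at 2445 RPKM at W2 and 2645 RPKM at W6, and the other 2 lay nearer to *Gpr132*.

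*Rbpj*, which encodes the DNA-binding partner of the freed receptor, had 0, 1, 5, 7 and 2 peaks on 7 sites. A single site was seen first at W1, 3 at W2 and 3 at W6. The strongest, in an intron 3945 bp from the start, is the first sequence above, with GCTTTGT near the centre. It was listed at W2 (2368 RPKM) and W6 (3106 RPKM, rank 3093 of 20579). At an internal start of *Rbpj*, a peak whose maximum lay 20 bp away was listed at W2 (2216 RPKM) and W6 (2183 RPKM).

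*Hes1*, the best known Notch target and a repressor of differentiation genes, had the most SOX9 peaks of the 10 genes at each time from W1: 1, 5, 7, 9 and 4. No other protein-coding gene shares its window. The 10 *Hes1* sites reached from 39471 bp upstream to 4102 bp past the start. The strongest, 16619 bp upstream, read 4379, 9015, 4282 and 2022 RPKM at W1, W2, W6 and W12 (rank 535 at W2). The site 2363 bp upstream, with the SOX word GCATTGT, read 6569, 8251, 7850 and 2022 RPKM. Both peaked at W2 and stood near the limit of the list at W12. At the promoter, 835 bp from the annotated start and 121 bp from another start, a peak was already listed in the uninduced D0 cells (3750 RPKM, 122 fragments). Its maximum then read 3054, 5806 and 4114 RPKM, with no peak at W12, so the W1 value was below that of D0. *Hey1* and *Heyl*, the related targets, had no SOX9 site.

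**Figure D2:**
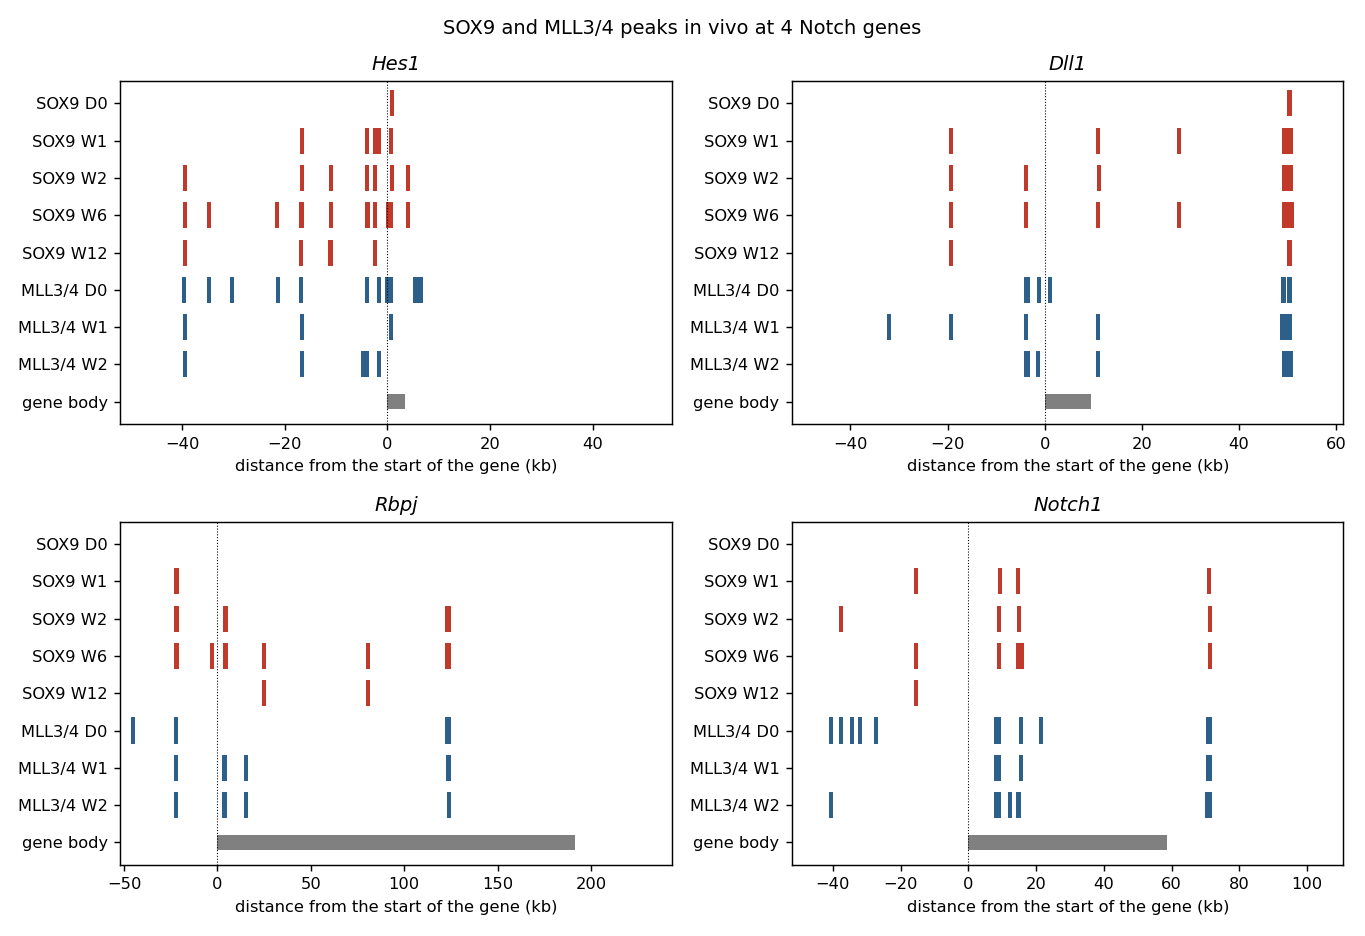
SOX9 (red) and MLL3/4 (blue) peaks in vivo at *Hes1*, *Dll1*, *Rbpj* and *Notch1* by distance from the gene start in kb, 1 row per list; short peaks are drawn wider than they are so that they can be seen, and close ones can run together. SOX9 rows fill from D0 to W6 and thin at W12, and the MLL3/4 row of *Hes1* falls from 12 peaks at D0 to 3 at W1 while that of *Rbpj* goes from 4 to 6.

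Over the 43 sites, 18 were first seen at W1 (41.9%, 28.4 to 56.7%), 13 at W2 (30.2%), 11 at W6 (25.6%) and 1 at W12 (2.33%). In the whole series of 28549 sites these shares were 54.4%, 20%, 21.1% and 4.61%. Sites listed at all 4 times numbered 5 (11.6%, 5.07 to 24.5%, against 17.9% of all sites): a pair each at *Hes1* and *Dll1* and 1 at *Jag1*. Sites listed at a single time numbered 16 (37.2% against 36.0%). The interval for W1 reached past the share of the whole series, so a later start of the Notch sites was not detectable with 43 sites.

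Where a SOX9 peak was listed at both of 2 neighbouring times, its maximum could be followed in RPKM. From W1 to W2 it was lower in 3 of 13 Notch peaks (30.9% of all such peaks), from W2 to W6 in 16 of 21 (65.6%) and from W6 to W12 in 8 of 12 (84.2%). The 4 peaks that were higher at W12 than at W6 were the *Notch1* site at 15431 bp upstream, the *Notch2* intron site, a *Jag1* site 34476 bp upstream and an *Rbpj* site 80633 bp from the start. All 5 sites listed at all 4 times were lower at W12 than at W6.

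**Figure D3:**
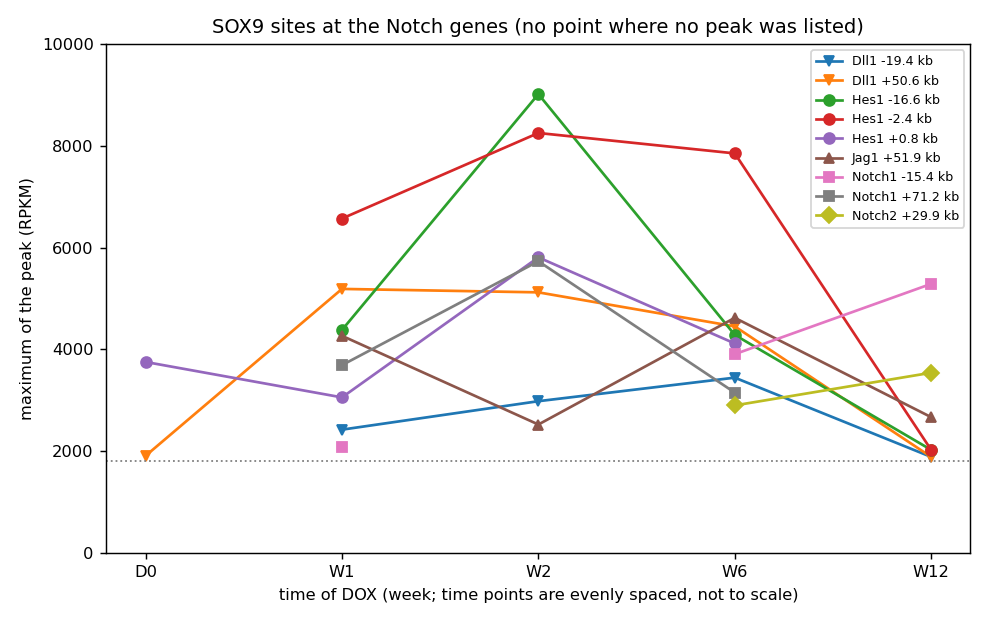
Maximum signal (RPKM) at D0, W1, W2, W6 and W12 of the SOX9 sites at the Notch genes that were listed at all 4 times of DOX or that overlapped a cultured WT-SOX9 MYC-tag peak, with no point where no peak was listed and the limit of 1800 RPKM dotted. The *Hes1* sites are highest at W2 (9015 and 8251 RPKM), and the *Notch1* site upstream of the gene and the *Notch2* site are highest at W12 (5285 and 3539 RPKM).

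*MLL3/4 at the Notch genes in vivo.* MLL3/4 peaks at the Notch genes were fewer after DOX, with 72 before it, 38 after a week and 49 at W2. In each list 9 of 10 genes had a peak, all but *Hey1*, where 71.7%, 67.9% and 65.0% of all genes had one. Per 100 kb the Notch genes held 4.73 peaks at D0 against 2.51 for all genes, 2.49 against 1.82 at W1 and 3.22 against 1.80 at W2. Of the 72 D0 peaks, 45 had no overlapping W1 peak (62.5%, 50.95 to 72.78%), where 48.5% of the whole list had none, and 47.96% was the share in the whole list at the same deciles of total signal. Of the 38 W1 peaks, 9 were new (23.68%, 12.99 to 39.21%), against 39.7% of the whole list and 43.65% at the same deciles. Both intervals left out the value of the whole list, narrowly. With the in vivo MLL3/4 lists limited to the same number of peaks, the share lost at W1 was 56.9% (44.12 to 68.82%), beside 41.64% of the whole list. With the highest 50% of each list it was 52.94% (36.74 to 68.55%), beside 45.71%, and with 10 kb windows 62.5% (47.03 to 75.78%), and these intervals held the value of the whole list. The share gained at W1 was 11.11% (3.102 to 32.8%) with the highest 50% of each list, beside 36.62% of the whole list, and 27.27% (13.15 to 48.15%) with 10 kb windows, an interval that held the value of the whole list. At W2 the intervals held the value of the whole list: 37 of 72 D0 peaks were lost (51.39%, 40.07 to 62.57%, against 48.7%) and 14 of 49 were new (28.57%, 17.85 to 42.41%, against 35.7%).

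Some sites were listed again at W2 after being missed at W1. Of the 89 merged MLL3/4 sites at the 10 genes, 31 were listed at D0 alone (34.8%, 25.7 to 45.2%, against 26.1% of all sites), 20 at all 3 times (22.5%, 15.0 to 32.2%, against 26.8%) and 14 at D0 and W2 but not W1 (15.7%, 9.61 to 24.7%, against 6.79% of all 53720 sites). By gene these 14 were 3 at *Notch3*, 3 at *Jag1*, 2 each at *Jag2*, *Dll1* and *Hes1*, and 1 each at *Notch1* and *Heyl*. Lost D0 peaks were the weaker ones: their median rank was at 65.6% of the list, against 21.3% for kept peaks, as in the whole list (67.9% and 30.7%). The W1 list as a whole was shorter than that of D0 (31539 against 37072 peaks), and the part that depth played in the returns was not tested.

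Per gene, 6 of the 9 genes with a D0 peak had fewer at W1, where 67.3% of all genes with a D0 peak did, and 2 had more, where 16.1% did. Among the 8 genes with 4 or more D0 peaks, a limit chosen after the counts were seen, 6 had fewer (79.4% of such genes). At W2, 6 of 9 had fewer (68.3%) and 1 had more (14.6%). These counts of genes thus lay near the background.

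All 3 receptors were on the falling side. In the order D0, W1, W2, *Notch1* had 11, 5 and 7 peaks, *Notch2* 12, 7 and 8, and *Notch3* 7, 3 and 5. The strongest lost peak of *Notch3* lay in the intron at 4827 bp (coverage 17, rank 6282 of 37072), within the W6 SOX9 site printed above, and was back at W2. That of *Notch1* lay 40561 bp upstream (rank 4842) and was also back at W2, and that of *Notch2*, 8732 bp into the gene (rank 12495), was not.

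Of the ligands, in the same order, *Jag1* had 11, 5 and 8 peaks and *Jag2* 8, 1 and 3. *Jag2* thus kept 1 of 8 at W1, and that one lay nearer to *Gpr132*. *Dll1* had 6, 7 and 6 peaks, but the change of 1 at W1 became -2 with 10 kb windows and -1 with peaks nearest to a *Dll1* start. Its sites changed as well: 3 D0 peaks were lost, one of them 148 bp from a *Dll1* start, and 3 W1 peaks were new. The strongest of the new ones, 11139 bp past the start (coverage 5), lay on a SOX9 site of W1, W2 and W6 whose sequence, with CCATTGT, is printed above. Another of the 3 lay at the start of *Fam120b*, also on SOX9. The strong *Dll1* site, 50556 bp past the start, held MLL3/4 at all 3 times (coverage 33, rank 218 at D0).

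*Rbpj* alone had more peaks at both W1 and W2 than at D0, with 4, 6 and 6. Of its W1 peaks 4 of 6 were new (66.67%, 30 to 90.32%), an interval that held the 39.7% of the whole list. None of the 4 overlapped a W1 SOX9 peak. One of them (3447 bp) lay within 1 kb of the sequence with GCTTTGT, and another (4137 bp) overlapped it. The SOX9 peak over this sequence was listed at W6, and the W2 peaks of the same site lay beside the sequence. Both times were later than that of the new MLL3/4 peaks. The strongest of the new peaks, 15323 bp into the gene (coverage 6, rank 15602 of 31539), was kept at W2.

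*Hes1* lost the most peaks of any of the 10 genes, with 12, 3 and 5. Of the 12, 9 were lost at W1 (75.0%, 46.77 to 91.11%), an interval that held the 48.45% of the whole list. The strongest of them, 3769 bp upstream (coverage 15, rank 2217 of 37072), lay on a SOX9 site of W1, W2 and W6 and was back at W2. Within 1 kb of a *Hes1* start, MLL3/4 had 2 peaks at D0, 1 at W1 and 0 at W2, while SOX9 had 1 at each time up to W6. *Heyl* had 1 peak in each list, none of which had *Heyl* as its nearest start, and *Hey1* had none.

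Starts of the other genes held few peaks. *Jag1* had an MLL3/4 peak at its start at D0 and W2, *Jag2* at W2, *Notch2* at all 3 times (2, 1 and 1), *Notch1* at an internal start at W2, *Dll1* at D0, and *Rbpj* at all 3 times (1, 2 and 1). *Notch3*, *Hey1* and *Heyl* had none. Of the 443 peaks of all lists, 354 had the member itself as the nearest protein-coding start and 89 another gene, among them 36 of 74 at *Notch1*, 15 of 22 at *Jag2* and 8 of 8 at *Heyl*.

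*SOX9 on lost, kept and gained MLL3/4 peaks.* SOX9 sat on few of the MLL3/4 peaks that went away. At W1, SOX9 overlapped 4 of 45 lost D0 peaks (8.89%, 3.51 to 20.73%), 12 of 29 kept W1 peaks (41.38%, 25.51 to 59.26%) and 2 of 9 gained peaks (22.22%, 6.32 to 54.74%). In the whole lists these shares were 7.58%, 55.01% and 30.5%. The 4 lost peaks with SOX9 lay at *Jag1* and *Hes1*, 2 each, and both gained ones at *Dll1*. At W2 the shares were 5 of 37 lost (13.51%), 15 of 35 kept (42.86%) and 4 of 14 gained peaks (28.57%), against 9.06%, 58.42% and 38.54%. The order of lost below gained below kept was that of the whole list, but that of lost below gained at W1 rested on 2 gained peaks with SOX9: it turned with the highest 50% of each list (5.556% lost, 0% gained) and was gone for maxima above 3600 RPKM (0% in both).

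Seen from the SOX9 sites, 29 of 43 overlapped a D0 MLL3/4 peak (67.4%, 52.5 to 79.5%, against 53.7% of all SOX9 sites). At W1, 20 of 43 overlapped one (46.5%, 32.5 to 61.1%, against 59.8%). All 7 *Jag1* sites and 7 of 10 *Hes1* sites had D0 MLL3/4, whereas 3 of 7 did at *Rbpj* and 2 of 5 at *Dll1*. Sites with MLL3/4 at D0 but not at W1 numbered 12 (27.9%, 16.7 to 42.7%), where the whole series had 10%: 4 at *Hes1*, 4 at *Jag1* and 1 each at *Notch1*, *Notch2*, *Jag2* and *Rbpj*. Sites with MLL3/4 at W1 or W2 but not at D0 numbered 5 (11.6%, 5.07 to 24.5%, against 20.7%). The interval left out the value of the whole series for the former and held it for the latter. Most of the 12 former sites had no SOX9 peak at W1. Only sites at *Hes1* and *Jag1* had one, and those at the other 4 genes were first listed later. Some of the 12 held MLL3/4 again at W2.

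**Figure D4:**
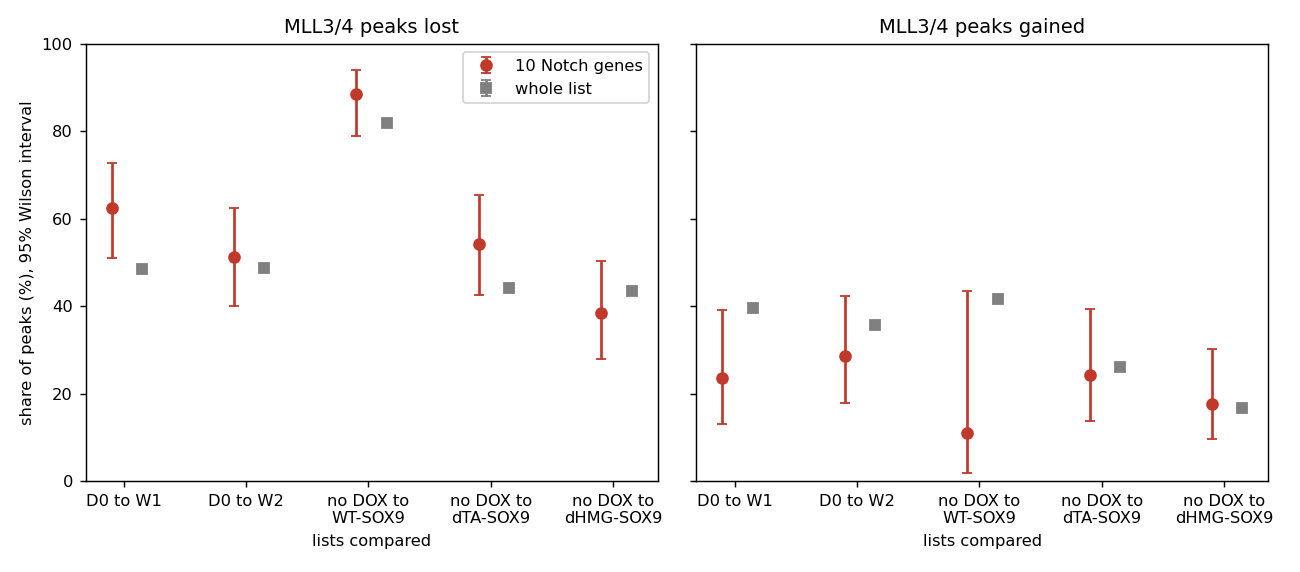
Share of MLL3/4 peaks lost (left) and gained (right) in 5 comparisons of lists, at the 10 Notch genes (circles) and in the whole list (squares), with 95% Wilson intervals over peaks. The Notch genes lie above the whole list for loss at W1 (62.5% against 48.5%) and below it for gain at W1 (23.68% against 39.7%), though the interval for loss at W1 held the whole list under other settings, and the intervals at W2 cross it.

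*MYC-tagged SOX9 at the Notch genes in culture.* The tag gave few peaks at the Notch genes: 3 in uninduced cells, and under DOX 5 (WT-SOX9), 8 (dTA-SOX9) and 3 (dHMG-SOX9). With the MYC-tag lists limited to the same number of peaks, the WT-SOX9 count was 0 and that of dTA-SOX9 3, and with the highest 50% of each list they were 2 and 3, so no order of WT-SOX9 and uninduced cells can be read from these counts. The genes with a peak numbered 2, 3, 6 and 3 of 10, where 20.1%, 32.0%, 41.0% and 29.3% of all genes had one. With WT-SOX9 the peaks lay at *Notch1* (2), *Notch2* (2) and *Hes1* (1). Of these, 4 were missed by the no-DOX list, and the fifth lay at the *Sec16a* start in the *Notch1* window, where no-DOX cells also had peaks. The *Notch1* site 15456 bp upstream (2134 RPKM) and the *Notch2* intron site at 29826 bp (1970 RPKM) were sites whose SOX9 maximum in vivo was highest at W12. The *Hes1* peak (2134 RPKM) lay at the promoter site, 127 bp from a start. The second *Notch2* peak, at 68200 bp (1970 RPKM), overlapped no other pooled list.

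dTA-SOX9 shared the *Notch1* upstream site (5333 RPKM) and otherwise lay on sites without a WT-SOX9 peak, among them a *Jag1* site 34556 bp upstream (5743 RPKM, rank 1063 of 11341), a *Hes1* site 26302 bp past the start (3692 RPKM) and the strong *Dll1* site (2872 RPKM). Of its 8 peaks 3 held an AP1 word (37.5%, 13.7 to 69.4%, against 25.7% of the whole list). dHMG-SOX9, which lacks the DNA-binding domain, had 1 peak each at *Notch1*, *Notch2* and *Dll1*. Those at *Notch1* and *Dll1* lay at the starts of *Sec16a* and *Fam120b*, where the no-DOX list had peaks as well. No MYC-tag peak was listed at *Notch3*, *Jag2*, *Hey1* or *Heyl*.

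*MLL3/4 at the Notch genes in culture.* Uninduced cells (of the WT-SOX9 line) had 70 MLL3/4 peaks at the Notch genes, and induced cells 9 (WT-SOX9), 41 (dTA-SOX9) and 51 (dHMG-SOX9). A peak was found at 9, 4, 8 and 9 of the 10 genes, against 70.9%, 42.4%, 65.9% and 64.3% of all genes. The whole lists moved the same way, from 33975 peaks to 10543, 25948 and 23301. With WT-SOX9, 62 of 70 no-DOX peaks were lost (88.57%, 79.04 to 94.09%, against 82.0% of the whole list), and 9 of 9 genes had fewer peaks (90.8% of all genes with a peak, with more in 2.58%). With dTA-SOX9 38 of 70 were lost (54.29%, against 44.3%), and 8 of 9 genes had fewer and 0 more (64.9% and 12.8%). With dHMG-SOX9 27 of 70 were lost (38.57%, against 43.5%), with 7 of 9 genes fewer and 1 more (63.1% and 12.1%).

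The receptors *Notch2* and *Notch3* went to 0 with WT-SOX9. In the same order, *Notch1* had 13, 4, 7 and 7 peaks, *Notch2* 16, 0, 12 and 13, and *Notch3* 7, 0, 4 and 10. Of the ligands, *Jag1* had 7, 2, 4 and 3, *Jag2* 4, 0, 0 and 2, and *Dll1* 5, 1, 1 and 3. In the nuclear arm, *Hes1* had 13, 2, 9 and 9, *Rbpj* 3, 0, 3 and 2, *Heyl* 2, 0, 1 and 2, and *Hey1* none. WT-SOX9 was lowest or tied for lowest at every gene with peaks, and *Jag2* and *Dll1* were as low with dTA-SOX9.

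The 9 peaks left with WT-SOX9 lay at *Notch1* (4), *Jag1* (2), *Hes1* (2) and *Dll1* (1). The *Dll1* one was the strong site 50556 bp past the start, one *Jag1* peak lay on its strongest SOX9 site, and one *Hes1* peak on the promoter. Of the 9, 1 was new (11.11%, 1.99 to 43.5%, against 41.8% of the whole list), a share that was 55.56% with lists of equal size, 66.67% with the highest 50% of each list and 0% with 10 kb windows, so no direction can be read from it. It was the site upstream of *Notch1* (coverage 7), where the MYC tag was listed with WT-SOX9 and dTA-SOX9, SOX9 at W1, W6 and W12, and MLL3/4 with dTA-SOX9. None of the 3 lists of MLL3/4 in vivo had a peak there. New peaks with dTA-SOX9 were 10 of 41 (24.39%, against 26.1%) and with dHMG-SOX9 9 of 51 (17.65%, against 16.7%).

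The tag was not found on lost MLL3/4 peaks of the Notch genes, and it was rare on those of the whole lists. WT-SOX9 overlapped 0 of 62 lost peaks (0 to 5.83%), where it overlapped 1.75% of all lost peaks, and 2 of 8 kept peaks (25.0%, 7.15 to 59.07%, against 21.47%). dTA-SOX9 overlapped 0 of 38 lost peaks (0 to 9.18%, against 6.28%) and 6 of 31 kept peaks (19.35%, 9.19 to 36.28%, against 35.03%). dHMG-SOX9 overlapped 0 of 27 lost peaks (0 to 12.46%, against 1.53%) and 3 of 42 kept peaks (7.14%, 2.46 to 19.01%, against 9.0%). These counts did not set the Notch peaks apart from the whole lists.

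*Words in the peaks.* A SOX word stood within 50 bp of the maximum in 3 of 18 Notch SOX9 peaks at W1 (16.7%, 5.84 to 39.2%, against 18.5% of the whole list), 5 of 27 at W2 (18.5%, against 15.5%), 9 of 34 at W6 (26.5%, 14.6 to 43.1%, against 18.8%) and 2 of 13 at W12 (15.4%, against 24.8%). Taking each site in the list of its highest total signal, the 8 sites with a SOX word lay at *Hes1* (3), *Dll1* (3), *Jag2* (1) and *Rbpj* (1). In the W6 list, where the maxima lay elsewhere in the same sites, a peak of *Notch2* (29761 bp from the start) and one of *Jag1* (18156 bp) held a SOX word as well. AP1 words stood in 7 of 34 peaks at W6 (20.6%, against 23.5%) and 11 of 72 MLL3/4 peaks at D0 (15.3%, against 12.9%). The RBPJ word was in 7 of 70 cultured no-DOX MLL3/4 peaks (10%, 4.93 to 19.2%), where 2.49% of that list held it. In the other cultured MLL3/4 lists it was in 2 of 9 peaks with WT-SOX9 (22.2%, 6.32 to 54.7%, against 2.5%), 1 of 41 with dTA-SOX9 (2.44%, against 2.56%) and 2 of 51 with dHMG-SOX9 (3.92%, against 2.5%). In vivo it was in 2 of 72 MLL3/4 peaks at D0 (2.78%, against 2.2%) and 3 of 38 at W1 (7.89%, 2.72 to 20.8%, against 2.18%). The lists thus differed, and the word did not mark the cultured MLL3/4 peaks as a whole. Of all 32851 RefSeq promoters, taken as 250 bases before the start, 14.0% held a SOX, 4.46% an AP1 and 5.42% an RBPJ word. Of the members, *Notch1*, *Notch2*, *Notch3*, *Jag1*, *Jag2*, *Dll1* and *Rbpj* matched this table, and the one word found in their promoters was a SOX word at one start of *Dll1*.

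*Other Notch pathway genes.* A list of 45 further genes of the pathway (the receptor *Notch4*, other ligands and targets, glycosyltransferases, proteases, ubiquitin ligases, cofactors) was counted in the same way. Before DOX 3 of the 45 had a SOX9 peak (*Hes7*, *Nrarp* and *Numbl*), near the share of all genes (6.04%). Over the later times 29, 34, 34 and 26 did (52.4%, 57.5%, 58.8% and 39.8% of all genes). From D0 to W12 the median was 0, 1, 2, 2 and 1 peaks per gene, beside 0, 1, 1, 1 and 0 for all genes. Of the 41 with an MLL3/4 peak at D0, 33 had fewer at W1 (80.5%, against 67.3% of all genes with a D0 peak) and 5 more (12.2%, against 16.1%). The 45 genes had a median of 5 MLL3/4 peaks at D0, against 2 for all genes. Among all genes with 4 or more D0 peaks 79.4% had fewer at W1, so the 80.5% lay near the background of such genes. Of the 40 with a peak in uninduced culture, 38 had fewer with WT-SOX9 and 0 more. Of all genes with such a peak 90.8% had fewer and 2.58% more, and of those with 4 or more peaks 98.5% had fewer. *Hes5* went from 0 to 1.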

How the data were processed

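CNR peak lists of SOX9, MLL3/4 and the MYC tag were analysed. The authors used Skewer for trimming, Bowtie2 2.2.9 for alignment to mm10, Picard against duplicates, SAMtools 1.3.1 and deepTools 3.1.2, kept fragments of at most 120 bp, pooled replicates and called peaks with SEACR at 0.01. For SOX9 and the MYC tag, the deposited maximum of a peak is in RPKM and, in the pooled lists, lies above 1800. For MLL3/4 the deposited signal of the pooled lists is coverage without scaling. The deposited total signal is a score summed over the bases of a peak, and it set the ranks within a list. The part of depth in the number of peaks listed was not tested.

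Of 41 samples, 32 stood behind the pooled lists, and 9 (JUN, ARID1a and BRG1) were not analysed here. Groups came from the sample labels. Windows reached 50 kb beyond the GENCODE vM21 gene body. Peaks were shared where they overlapped by 1 bp or more. Left out were mitochondrial peaks (3 per pooled MLL3/4 list from culture, 4 per replicate 1 list). Python 3.11.15, pandas 2.3.3, numpy 2.4.6, scipy 1.17.1 and matplotlib 3.10.9 were used, and the overlap and window counts were tested on simulated data. Fragments behind a maximum were read from the step between low RPKM values (tolerance 0.05).

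The named items were the 10 genes, and for each its SOX9 site, lost D0 and gained W1 MLL3/4 peak and new WT-SOX9 MYC-tag peak of highest total signal, and the peaks within 1 kb of its starts. Sites outside this rule that are named were chosen after their values were seen. Not every site sequence is reported here. The genes, lists and alternatives were chosen with earlier results of these data known. Alternatives were windows of 10 kb, peaks nearest to the gene's own start, an overlap of 50%, the highest 50% by total signal, lists of equal size, merging within 500 bp, a maximum above 3600 RPKM, wider word windows and the replicate 1 list without DOX.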

Additional observations from a re-analysis of the deposited data

Results flagged for a closer look

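At 3 genes MLL3/4 peak counts went opposite ways in 2 comparisons of induced with uninduced cells. Since each group has 1 pooled list, none of these differences was tested. *Notch3* had 3 more peaks with dHMG-SOX9 than without DOX in culture (10 against 7) but 7 fewer with WT-SOX9 (0 against 7), a change of -7. The uninduced cells were of the WT-SOX9 line, so for dHMG-SOX9 cell line and DOX cannot be told apart. *Dll1* had 1 more peak at W1 than at D0 in vivo (7 against 6) but with WT-SOX9 in culture 1 against 5, a change of -4; with windows of 10 kb, or with peaks nearest to a *Dll1* start, the in vivo change was -2 or -1. *Rbpj* had 2 more peaks at W1 than at D0 (6 against 4) but 0 against 3 with WT-SOX9 in culture, a change of -3. The whole MLL3/4 list of WT-SOX9 in culture was also the shortest of its set, at 10543 peaks against 33975 without DOX, and the part of its length in these counts was not tested.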

How the results depend on the processing

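No paired analysis was possible because each group has 1 pooled list and no result comes from a test. With windows of 10 kb to each side, SOX9 peaks at the Notch genes in the order D0, W1, W2, W6, W12 were 1, 9, 15, 21 and 4, genes with a SOX9 peak were 1 at D0 and 3 at W12, MYC-tag peaks were 0 (no DOX), 3 (WT-SOX9), 3 (dTA-SOX9) and 0 (dHMG-SOX9), SOX9 lay on 18.75% of MLL3/4 peaks kept at W1, the share gained with WT-SOX9 was 0%, and 18 of the other pathway genes had SOX9 at W1. With peaks nearest to the gene's own start, MYC-tag peaks were 0 without DOX and 1 with dHMG-SOX9.

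With the highest 50% of each list, SOX9 peaks were 9, 15, 17 and 4 at W1, W2, W6 and W12, MYC-tag peaks 2 (WT-SOX9) and 3 (dTA-SOX9), the MLL3/4 share gained at W1 11.11%, SOX9 on gained W1, lost W2 and kept W2 peaks 0%, 5.263% and 66.67%, and WT-SOX9 loss and gain in culture 97.14% and 66.67%. With lists of equal size, SOX9 peaks were 16 at W2 and 17 at W6, MYC-tag peaks 0 (WT-SOX9) and 3 (dTA-SOX9), SOX9 on lost peaks 3.03% at W1 and 3.846% at W2, the share gained with WT-SOX9 55.56%, and the shares lost 39.13% (dTA-SOX9) and 26.09% (dHMG-SOX9). With maxima above 3600 RPKM, SOX9 peaks were 1, 6, 11, 8 and 1, genes with one 1 at D0, 5 at W6 and 1 at W12, MYC-tag peaks 0, 0, 3 and 0, and SOX9 on lost W1, gained W1, lost W2 and kept W2 peaks 0%, 0%, 2.703% and 22.86%. The no-DOX MYC-tag count without replicate 2 ranged from 1 (maxima above 1800 RPKM) to 5. The cause of these moves was not tested.

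Some changes in MLL3/4 peak counts of single genes turned: *Dll1* at W1 to -2 (10 kb) and -1 (own start nearest), and with dHMG-SOX9 *Jag2* to 1 (10 kb) and 2 (own start nearest), *Notch2* to 1 and *Hes1* to 1 (both with the highest 50% and with equal sizes). Merging peaks within 500 bp and an overlap of 50% moved none of the main counts and shares past the limits. SOX9 counts were higher at W6 than at W12 in 6 of 6 alternatives, and SOX9 lay more often on kept than on lost W1 peaks in 7 of 7, but more often on gained than on lost ones in 5 of 7, with the exceptions of the highest 50% and of maxima above 3600 RPKM. The loss at W1 exceeded that at W2 in 5 of 6, the exception being the highest 50%. With so few peaks, 1 peak moves a share of the gained peaks by several percentage points.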
